A study of Mus musculus with 8 samples.

Results

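Adipocyte markers and lipid storage genes were followed in mouse leg muscle with and without a plasmid for ATF4, a transcription factor of the cellular stress response. A list of 40 genes was drawn up by function, with earlier results of these data known. A gene counted as measured where a probe set on the array was annotated to it and to no other gene. That held for 36 genes, of 14860 genes measured in all, each with a single such probe set. Lipe, the hormone-sensitive lipase, had only a probe set shared with another gene, and Cfd, Adrb3 and Me1 were not matched to a probe set. The measured genes comprised 11 fat-cell markers, 3 genes for coat proteins of lipid droplets, 15 genes of lipid synthesis and 7 genes of lipid uptake and release.

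The mice were C57BL/6 males aged 8 weeks, and the tissue was the tibialis anterior, a fast muscle at the front of the shin. Electroporation delivered 25 µg of the empty plasmid pcDNA3 to the left muscle and 25 µg of pCMV-ATF4-FLAG, which encodes tagged mouse ATF4 under a viral promoter, to the right, and RNA was taken from fed mice 11 days later. The experiment was done 4 times and gave 8 exon arrays, 4 with empty vector and 4 with ATF4, so plasmid and side of the body cannot be told apart. Both groups were electroporated, which transfects only part of a muscle's cells, and it is not stated if mice were pooled within an experiment.

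White fat cells store triglyceride in a droplet coated by perilipins and release adipokines such as adiponectin and leptin into the blood. Muscle contains few of them, between the fibre bundles or attached to the outside, but muscle fibres take up, store and burn fatty acids and therefore express part of the same machinery. Lipoprotein lipase frees fatty acids from circulating lipoproteins, CD36 carries them into the cell, acyltransferases and lipins build triglyceride, and lipases break it down again. In whole-muscle RNA, fewer cells of a type and less RNA per cell cannot be told apart.

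All values below are log2 levels as the authors deposited them, and differences are ATF4 minus empty vector within each experiment. Array medians lay between 4.29 and 4.44, and arrays correlated with r from 0.916 to 0.981 across probe sets. The 9 measured genes of fast fibres (Ckm, Acta1, Tnnt3 and others) all stood at or above the 99.6 percentile of probe set levels. Their mean level per array ran from 10.35 to 10.44 in the empty-vector muscles and from 10.22 to 10.50 in the others. Atf4 itself differed by 0.18 (SE 0.11, adjusted p = 0.846 in limma). It was 0.24, 0.31 and 0.24 higher on the ATF4-labelled arrays of experiments 1 to 3, and in experiment 4 the difference was -0.05. The ATF4-labelled array of experiment 4 had the lowest Atf4 level of the 8, at 6.18, so the directions given for that experiment rest on its label. The labels leave unstated if its probes lie in the coding sequence that the plasmid carries, so the right muscles are called ATF4-labelled. The fitted test was limma with the experiment as a block, two-sided, with Benjamini-Hochberg adjustment over all 16755 probe sets and a threshold of 0.05.

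None of the 36 genes passed that threshold, where 0.0179% of all probe sets did (3 of 16755). The smallest adjusted p among the 36 was 0.754. At an unadjusted p under 0.05 in the same fit there were 6 of them, 5 lower and 1 higher, which is 16.7% against a background of 6.00% of all probe sets. The lower ones were Adipoq, Car3, Lpin1, Lpl and Cd36, or 13.9% of the 36 against a background of 2.77% in that direction. The higher one was Cebpa, against 3.23% in its direction. Because the list was chosen with earlier results of these data known, these shares are a description and not a test of the list. Without experiment 3 the count went from 6 to 1, Cebpa, with sizes close to those from all 4 experiments (-0.48 for Adipoq, -0.34 for Car3, -0.34 for Lpin1, -0.41 for Lpl and -0.38 for Cd36), and without experiments 1, 2 and 4 it was 6, 5 and 4. Of the 36, 5 were lower in 4 of 4 experiments and 2 higher, where 6.64% and 8.25% of all probe sets were. The ATF4 values lay wholly below the empty-vector values for 0 of the 36 (0.752% of all probe sets) and wholly above them for 1 (1.41%). As a whole the genes did not lean to one side: 17 were lower and 19 higher (47.2% lower, against 45.5% of all probe sets), with a median difference of 0.0074 against 0.02. With each array centred on its median, 22 of the 36 were lower, against 55.0% of all probe sets, and with array weights 24 were, against 47.2%. The weights of the empty-vector arrays were 0.90, 0.94, 2.71 and 0.44 in experiments 1 to 4, so that fit rests mostly on experiment 3. In experiment 3 alone 23 of the 36 were lower, against 47.4% of all probe sets.

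The 95% intervals bound the difference in measured whole-muscle signal. They do not bound a change in the transfected cells alone. For dim genes such as Lep, Cidea, Ucp1 and Elovl6, whose signal and background cannot be separated, they do not bound a change in RNA. The 95% interval of the difference lay within 1.5-fold in either direction for 27 of the 36 genes, and within 2-fold for all 36. The 9 others were Adipoq, Car3, Scd1, Lpin1, Lpl and Cd36, whose intervals reached past 1.5-fold lower, and Lep, Cebpa and Pck1, whose intervals reached past 1.5-fold higher.

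**Figure D1:**
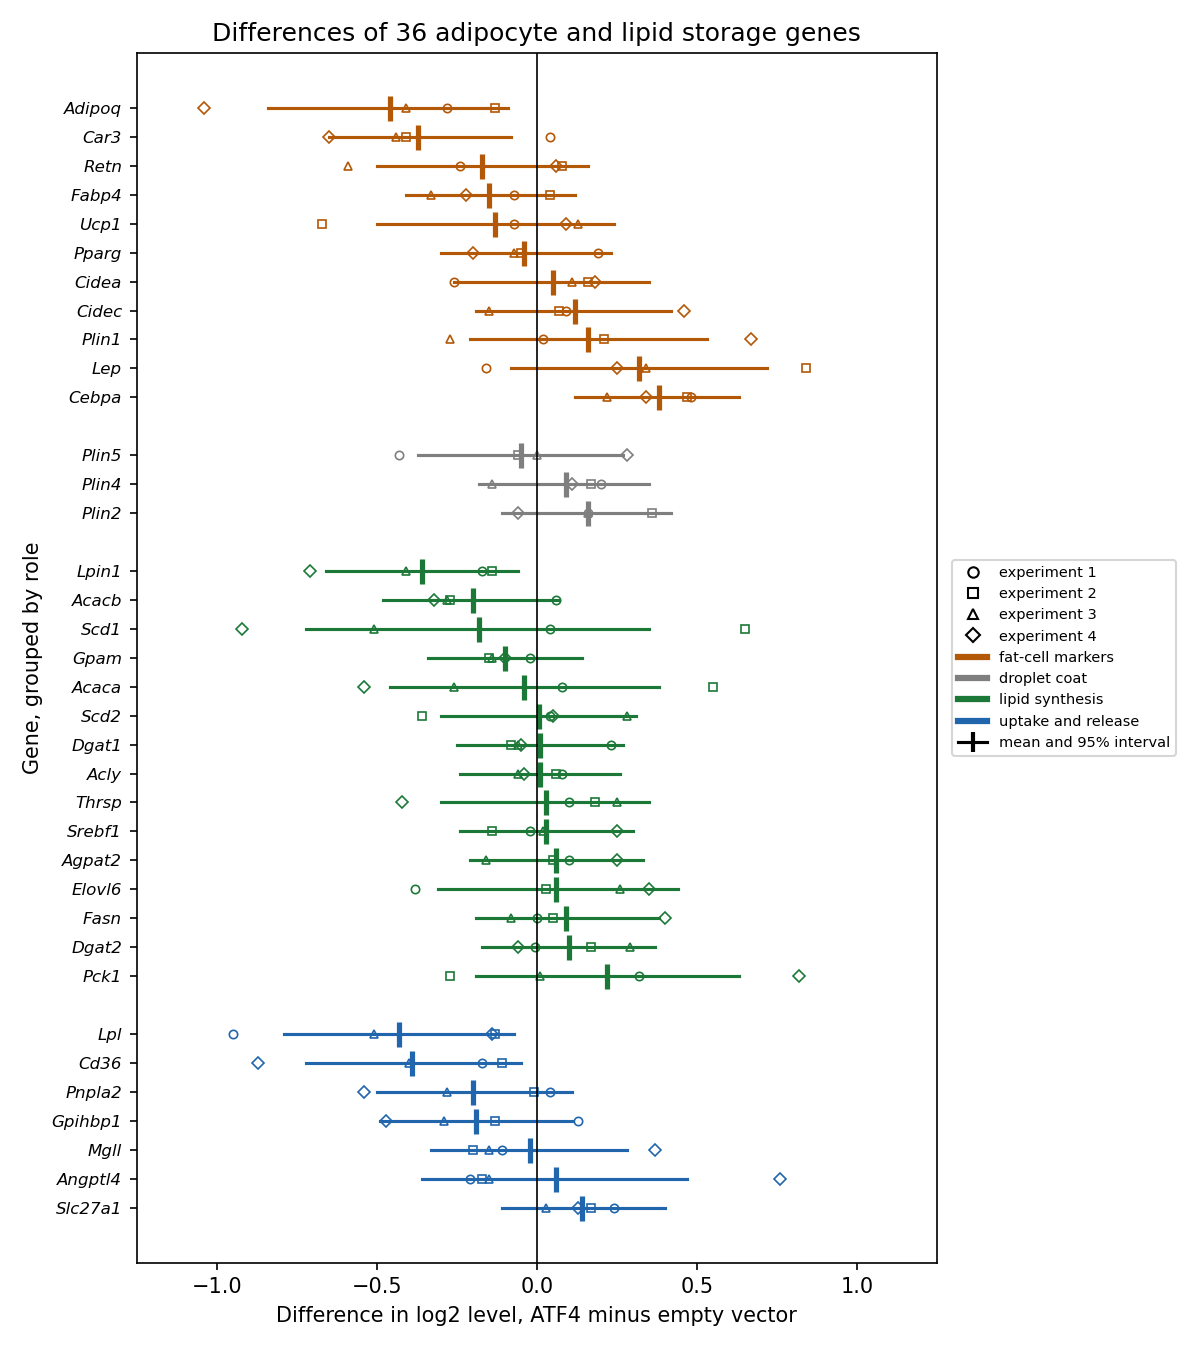
Difference in log2 level, ATF4 minus empty vector, for the 36 genes in 4 role groups (x axis; genes on the y axis). Open symbols are the 4 experiments, vertical ticks the means and horizontal bars the 95% intervals from limma. The means run from -0.46 for Adipoq to 0.38 for Cebpa, and intervals that leave out 0 belong to Adipoq, Car3, Lpin1, Lpl, Cd36 and Cebpa.

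Promoter sequences are shown for Adipoq, Cd36, Lpin1 and Gpam, which were lower in 4 of 4 experiments, and for Cebpa, which was higher in 4 of 4, so that the DNA next to these start sites can be read beside the values. Lpl, the remaining gene lower in 4 of 4, had no promoter among the sequences available and is named only. Slc27a1, the other gene higher in 4 of 4, is not printed. Each is the 250 bases before the start site from RefSeq, mouse build GRCm38.p6, written 5′ to 3′ on the gene's strand. Adipoq is chr16:23146286-23146535 on the plus strand, Cd36 chr5:17835897-17836146 on the minus strand, Lpin1 chr12:16610967-16611216 on the minus strand, Gpam chr19:55127239-55127488 on the minus strand and Cebpa chr7:35119043-35119292 on the plus strand. Capitals mark CCAAT or TATAAA on either strand and, in Gpam, also the element TGATGNAA.
Adipoq: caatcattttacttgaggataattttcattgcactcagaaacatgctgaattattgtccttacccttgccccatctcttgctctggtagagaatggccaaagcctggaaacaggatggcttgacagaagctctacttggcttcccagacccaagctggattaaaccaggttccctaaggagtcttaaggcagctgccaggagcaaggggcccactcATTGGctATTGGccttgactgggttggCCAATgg
Cd36: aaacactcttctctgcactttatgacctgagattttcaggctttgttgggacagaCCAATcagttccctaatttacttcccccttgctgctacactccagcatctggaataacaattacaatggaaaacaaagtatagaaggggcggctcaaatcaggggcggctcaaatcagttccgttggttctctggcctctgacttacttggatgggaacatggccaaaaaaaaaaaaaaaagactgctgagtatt
Lpin1: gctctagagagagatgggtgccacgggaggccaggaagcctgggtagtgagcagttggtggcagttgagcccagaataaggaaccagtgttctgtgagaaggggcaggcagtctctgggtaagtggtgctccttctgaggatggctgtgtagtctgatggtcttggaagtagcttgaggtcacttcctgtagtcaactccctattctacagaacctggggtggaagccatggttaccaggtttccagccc
Gpam: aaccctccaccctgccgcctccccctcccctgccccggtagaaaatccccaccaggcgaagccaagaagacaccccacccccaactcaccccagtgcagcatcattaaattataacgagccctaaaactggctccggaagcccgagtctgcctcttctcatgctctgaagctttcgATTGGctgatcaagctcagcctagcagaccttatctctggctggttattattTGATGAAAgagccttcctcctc
Cebpa: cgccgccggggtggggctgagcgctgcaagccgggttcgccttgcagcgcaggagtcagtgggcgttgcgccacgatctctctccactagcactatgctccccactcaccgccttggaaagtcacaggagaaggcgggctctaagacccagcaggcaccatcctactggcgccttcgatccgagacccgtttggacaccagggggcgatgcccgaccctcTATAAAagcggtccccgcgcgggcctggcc
Of the 36 genes, 26 had a promoter in the table, 36 promoters in all. The element TGATGNAA, to which ATF4 binds together with a C/EBP partner, was searched on both strands. It was found in 1 of the 36 promoters (2.78%), the one of Gpam printed here, which has a second start site in the table, against 3.45% of all 32851 promoters. The C/EBP palindrome core TTGCGNAA was found in 1 (Lep), against 0.670%. The cyclic AMP element TGACGTCA was in 0 of 36, against 1.55%. The direct repeat AGGNCANAGGNCA (DR1), the form bound by PPAR and RXR, was likewise in 0, against 0.338%. CCAAT was found in 15 promoters of 12 genes (41.7%, against 33.8%), with 3 copies in Adipoq and 1 in Cd36. TATAAA was found in 3 (8.33%, against 12.4%), among them Cebpa. The other 4 promoters printed hold no TGATGNAA in these 250 bases, which says nothing about binding of ATF4.

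Adiponectin, encoded by Adipoq, is secreted almost only by fat cells and is the most specific of their markers. It stood at 5.20, 4.87, 5.43 and 5.59 with empty vector and at 4.93, 4.74, 5.01 and 4.55 with ATF4 in experiments 1 to 4. Each ATF4-labelled muscle was lower than its partner, but the groups overlapped. The difference was -0.46 (SE 0.16, 95% interval -0.84 to -0.09, adjusted p = 0.779 in limma), that is 1.38-fold lower. Experiment 4 gave -1.04 against -0.13 to -0.41 in the others, and without it the difference was -0.27.

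Plin1 and Cidec differed little on average. Plin1, the perilipin that coats the droplet of fat cells, stood at 5.26, 5.13, 5.05 and 4.61 with empty vector and at 5.28, 5.34, 4.78 and 5.28 with ATF4. Its difference was 0.16 (SE 0.16, adjusted p = 0.886 in limma), with the ATF4-labelled muscle higher in 3 of 4 experiments. Cidec, which fuses small droplets into large ones, stood at 4.58, 4.65, 4.60 and 4.21 with empty vector and at 4.67, 4.72, 4.46 and 4.67 with ATF4. It differed by 0.12 (SE 0.13, adjusted p = 0.899 in limma), also higher in 3 of 4. Without experiment 4 the differences were -0.01 for Plin1 and 0.0024 for Cidec. Of the 11 fat-cell markers 6 had differences below 0, among them Adipoq, Car3 at -0.37, Retn at -0.17 and Fabp4 at -0.15. The other 5 were above 0, with Cebpa at 0.38 and Lep at 0.32 the furthest.

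Experiment 4 set these markers most widely apart. Its empty-vector muscle had the highest Adipoq level of the 8 arrays and the lowest Plin1 and Cidec levels. Between its muscles Adipoq differed by -1.04, Plin1 by 0.67 and Cidec by 0.46. Experiment 3 was the one in which all 3 were lower with ATF4, by -0.41, -0.27 and -0.15. Fabp4, the fatty acid binding protein of fat cells, which macrophages and capillaries express too, stood at 5.48, 5.55, 5.72 and 5.60 with empty vector and at 5.41, 5.59, 5.39 and 5.38 with ATF4. Its groups overlapped, with a difference of -0.15 (SE 0.12, adjusted p = 0.864 in limma).

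**Figure D2:**
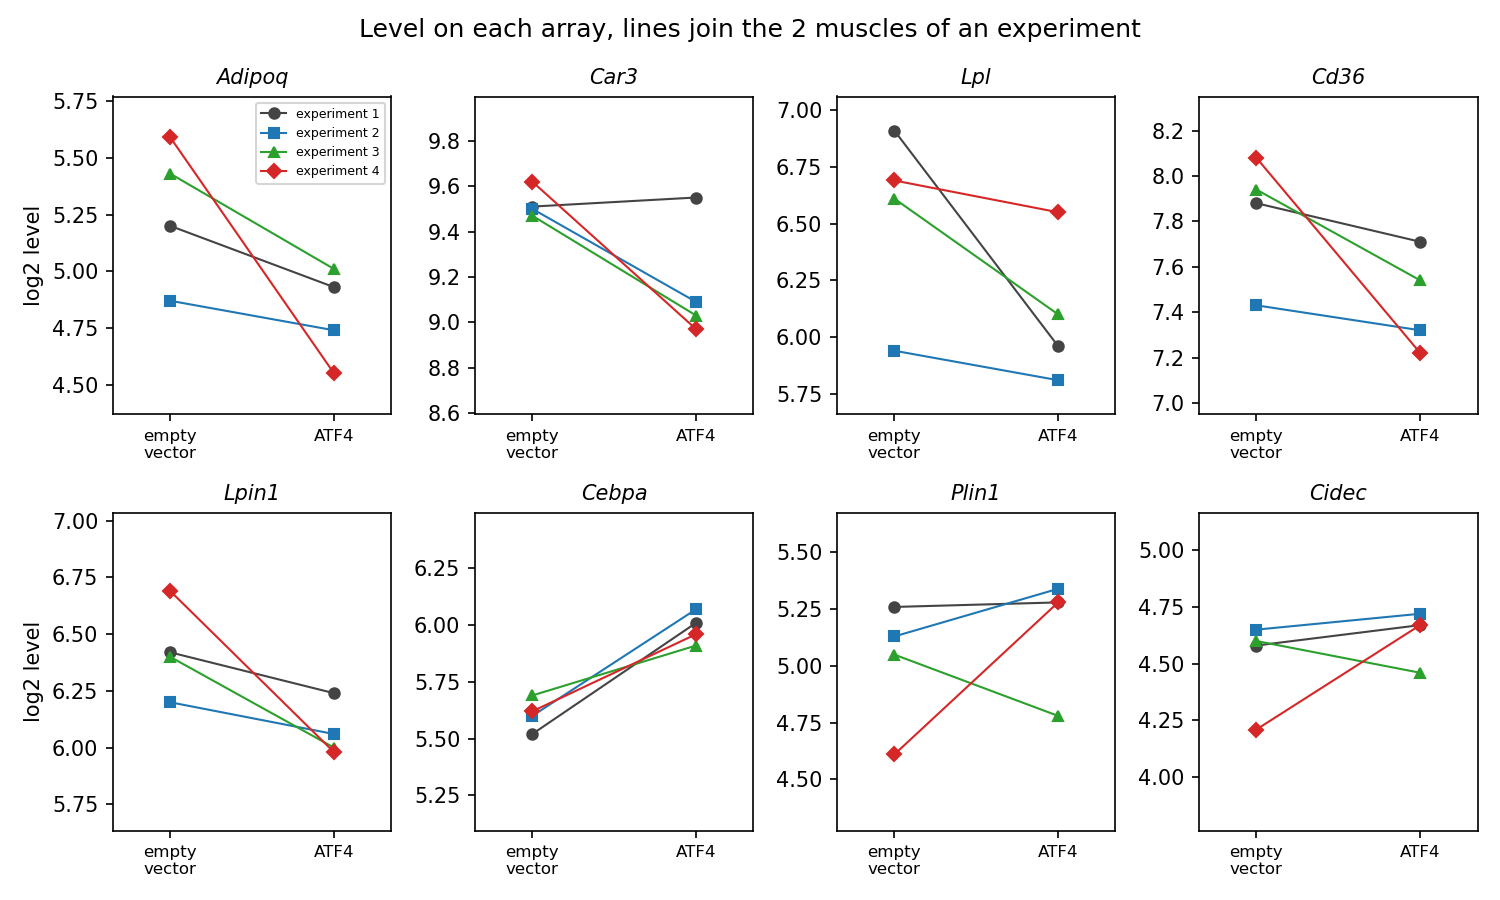
Log2 level (y axis, the same span in every panel) of 8 genes on each array with empty vector and with ATF4 (x axis), with a line for each of the 4 experiments. All 4 lines slope down for Adipoq, Lpl, Cd36 and Lpin1 and up for Cebpa, while in experiment 4 Plin1 and Cidec go from 4.61 to 5.28 and from 4.21 to 4.67.

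Car3, carbonic anhydrase III, is abundant in fat and in slow muscle fibres. Its mean level was at the 99.7 percentile of probe sets, in the range of the fibre markers, against 74.7 for Adipoq. How much of its signal came from fat cells was not tested. Its levels with empty vector were nearly equal, at 9.51, 9.50, 9.47 and 9.62, an SD at the 2.40 percentile of all probe sets. With ATF4 it stood at 9.55 in experiment 1 and at 9.09, 9.03 and 8.97 in experiments 2 to 4. The ATF4-labelled muscle was thus lower than every empty-vector muscle in 3 experiments and matched its partner in the first. The difference was -0.37 (SE 0.12, adjusted p = 0.765 in limma), -0.50 without experiment 1 and -0.27 without experiment 4.

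Cebpa, a transcription factor that drives fat cell differentiation and a relative of the C/EBP partners of ATF4, was the only one of the 36 genes whose groups did not overlap. It stood at 5.52, 5.60, 5.69 and 5.62 with empty vector and at 6.01, 6.07, 5.91 and 5.96 with ATF4. The difference was 0.38 (SE 0.11, 95% interval 0.12 to 0.63, adjusted p = 0.754 in limma), that is 1.30-fold. It was 0.48, 0.47, 0.22 and 0.34 in experiments 1 to 4, and between 0.34 and 0.43 with any one experiment left out. Its partner in fat cell differentiation, the nuclear receptor gene Pparg, differed by -0.04 (SE 0.12), with an interval from -0.30 to 0.23.

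The remaining fat-cell markers were Lep at 0.32, Cidea at 0.05, Ucp1 at -0.13 and Retn at -0.17 (differences), with SEs of 0.13 to 0.17. Leptin and resistin are adipokines, and Cidea and Ucp1 mark brown fat. Lep, Cidea and Ucp1 stood at the 16.4, 18.2 and 21.0 percentiles of probe set levels on average, where signal and background cannot be separated in these files. Over the 11 fat-cell markers 6 were lower and 5 higher, with a median of -0.04. The median of the 11 was -0.07, 0.07, -0.15 and 0.09 in experiments 1 to 4, so its direction alternated.

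Perilipins 2, 4 and 5 coat droplets in muscle fibres as well as in other cells. Plin2, which follows the lipid load of most cells, stood at 5.90, 5.57, 6.27 and 6.02 with empty vector and at 6.06, 5.93, 6.43 and 5.97 with ATF4. Both muscles of experiment 3 were the highest, and the difference was 0.16 (SE 0.12). Plin4 stood at 4.89, 5.11, 5.04 and 5.23 against 5.09, 5.28, 4.90 and 5.34, a difference of 0.09 (SE 0.12). Plin5, which ties droplets to mitochondria in oxidative tissue, stood at 4.60, 4.63, 4.40 and 4.50 against 4.17, 4.58, 4.40 and 4.78. Its difference of -0.05 (SE 0.14) joined -0.43 in experiment 1 to 0.28 in experiment 4. The adjusted p in limma was 0.853 or more for these 3 genes, and the groups overlapped for each.

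Among the genes of lipid synthesis, Lpin1 had the smallest p. It encodes lipin 1, the phosphatidate phosphatase that makes diacylglycerol for triglyceride synthesis and, in the nucleus, coactivates fatty acid oxidation genes. It stood at 6.42, 6.20, 6.40 and 6.69 with empty vector and at 6.24, 6.06, 6.00 and 5.98 with ATF4. The ATF4-labelled muscle was lower in 4 of 4 experiments, and the groups overlapped in a narrow range. The difference was -0.36 (SE 0.13, 95% interval -0.66 to -0.06, adjusted p = 0.787 in limma), or -0.24 without experiment 4.

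The enzymes that make fatty acids did not lean to one side. Acacb, the acetyl-CoA carboxylase whose malonyl-CoA restrains fatty acid oxidation in muscle, stood at 5.38, 5.35, 5.28 and 5.62 against 5.44, 5.08, 5.0 and 5.30. Its difference was -0.20 (SE 0.12), lower in 3 of 4 experiments. Acaca, the carboxylase of lipogenic tissues, differed by -0.04, Fasn, fatty acid synthase, by 0.09, and Acly, which supplies cytosolic acetyl-CoA, by 0.01. Elovl6, which lengthens palmitate, differed by 0.06, and Srebf1, the transcription factor of this pathway, by 0.03. Elovl6 stood at the 10.8 percentile of probe set levels, where signal and background cannot be separated.

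Scd1, the desaturase that makes oleate, varied widely and went both ways. It stood at 6.63, 5.88, 6.82 and 6.81 with empty vector and at 6.67, 6.53, 6.32 and 5.89 with ATF4. The difference was 0.65 in experiment 2 and -0.92 in experiment 4, which gave a mean of -0.18 (SE 0.23, adjusted p = 0.913 in limma). Scd2, a second desaturase, differed by 0.0054 (SE 0.13). Pck1, whose product feeds the glycerol backbone of triglyceride in fat, stood at 4.22, 4.42, 4.04 and 3.77 against 4.54, 4.15, 4.05 and 4.59. Its mean difference of 0.22 (SE 0.18) joined 0.82 in experiment 4 to -0.27 in experiment 2.

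The acyltransferases of triglyceride assembly differed little between plasmids. Gpam, which attaches the first fatty acid to glycerol 3-phosphate, was lower in 4 of 4 experiments by a mean of -0.10 (SE 0.10). Agpat2, which attaches the second, differed by 0.06, and Dgat1 and Dgat2, which attach the last, by 0.0095 and 0.10. Thrsp, a lipogenic protein that responds to thyroid hormone and carbohydrate, differed by 0.03. Of the 15 synthesis genes 5 were lower and 10 higher, with a median difference of 0.01 that was -0.03 with median centring and -0.01 with quantile normalization. None but Lpin1 had an unadjusted p under 0.05.

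Uptake and release genes had the lowest median of the role groups, -0.19, and it was -0.11 with quantile normalization. Of the 7 genes 5 were lower (71.4%), against 45.5% of all probe sets. Of these, Lpl, Gpihbp1, Cd36 and Pnpla2 stood at the 90.2 to 98.2 percentiles of level. In the brightest 25% of all probe sets 64.7% were lower, so the count is not read as a result about these genes. Lpl, lipoprotein lipase, stood at 6.91, 5.94, 6.61 and 6.69 with empty vector and at 5.96, 5.81, 6.10 and 6.55 with ATF4. It was lower in 4 of 4 experiments, with overlapping groups because the empty-vector muscle of experiment 2 was low. The difference was -0.43 (SE 0.16, 95% interval -0.79 to -0.07, adjusted p = 0.787 in limma), made up of -0.95 and -0.51 in experiments 1 and 3 and -0.13 and -0.14 in experiments 2 and 4. Without experiment 1 it was -0.26.

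Cd36, the fatty acid transporter of fibres, capillaries and fat cells, stood at 7.88, 7.43, 7.94 and 8.08 with empty vector and at 7.71, 7.32, 7.54 and 7.22 with ATF4. It too was lower in 4 of 4 experiments with overlapping groups, by a mean of -0.39 (SE 0.14, 95% interval -0.72 to -0.05, adjusted p = 0.789 in limma). Experiment 4 gave -0.87, and without it the difference was -0.22. The experiments that weighed most were therefore not the same for Lpl as for Cd36.

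Gpihbp1, which holds lipoprotein lipase on capillary walls, differed by -0.19 (SE 0.13), and Slc27a1, a fatty acid transport protein of muscle and fat, by 0.14 (SE 0.11), higher in 4 of 4 experiments. Pnpla2, the lipase that takes the first fatty acid from stored triglyceride, stood at 6.65, 6.52, 6.39 and 6.89 against 6.69, 6.50, 6.11 and 6.35. Its difference was -0.20 (SE 0.13), close to 0 in experiments 1 and 2 and at -0.28 and -0.54 in experiments 3 and 4. Mgll, which takes the last fatty acid, differed by -0.02, and Angptl4, a secreted inhibitor of lipoprotein lipase, by 0.06. For both, experiments 1 to 3 were below 0 and experiment 4 stood at 0.37 and 0.76.

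**Figure D3:**
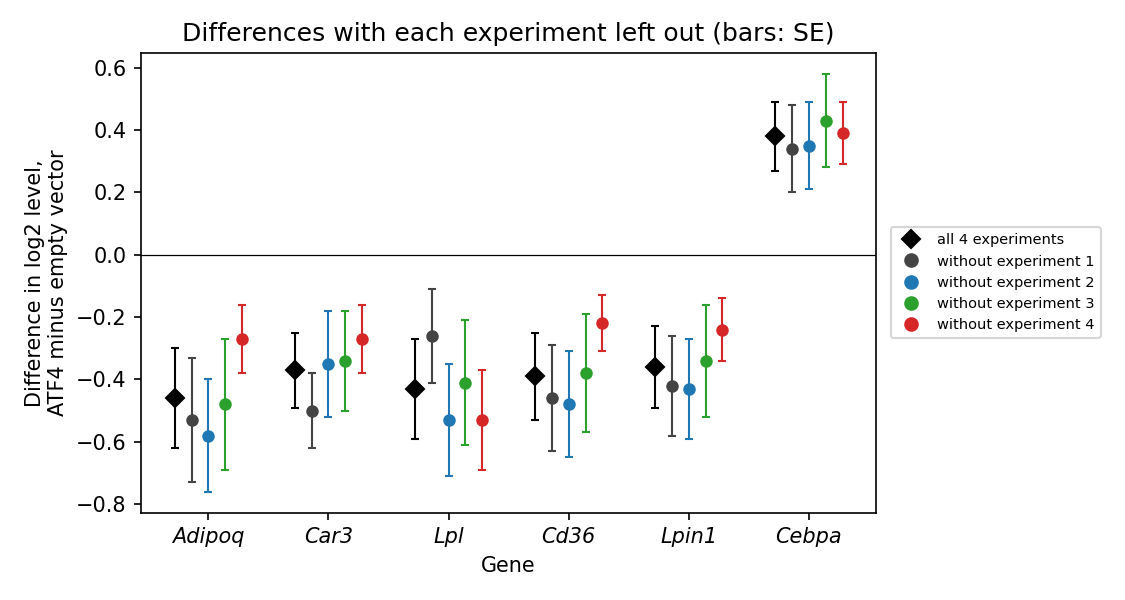
Difference in log2 level, ATF4 minus empty vector (y axis), for the 6 genes with an unadjusted p under 0.05 (x axis), from all 4 experiments (diamonds) and with each experiment left out (circles); bars are SEs from limma. Without experiment 4 Adipoq, Cd36 and Lpin1 are at -0.27, -0.22 and -0.24, without experiment 1 Lpl is at -0.26, and Cebpa stays between 0.34 and 0.43.

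Over the whole array, bright probe sets were lower on average more often than the others. The split by brightness was counted for the mean difference and for experiment 4 only. Of the 36 genes, 16 were in the brightest 25% of probe sets by mean level, and 11 of these 16 were lower, where 64.7% of those 4189 probe sets were. Of the other 20 genes 6 were lower, Adipoq among them, where 39.1% of the other 12566 probe sets were. These shares are close to the background and are not a result about the lipid genes. In experiment 4, 13 of the 16 bright genes were below 0, against 73.6% of the bright probe sets, and 5 of the other 20, against 32.5%. Over all probe sets, the SD of the values in experiment 4 was 1.14 on the ATF4 array and 1.31 on the empty-vector array. In experiments 1 to 3 it was 1.21, 1.12 and 1.29 on the ATF4 arrays and 1.19, 1.11 and 1.32 on the empty-vector arrays. At an unadjusted p under 0.05, 4 of the 16 bright genes were lower (Car3, Lpin1, Lpl and Cd36, with Adipoq just outside at the 74.7 percentile), against 5.49% of the bright probe sets, and 1 was higher (Cebpa), against 2.65%. With quantile normalization, which gives every array the same spread, Adipoq differed by -0.44, Car3 by -0.34, Lpin1 by -0.29, Lpl by -0.34, Cd36 by -0.31 and Cebpa by 0.43. The unadjusted p of Lpl was then 0.100, and those of the other 5 genes were between 0.00356 and 0.0182 in limma. Plin2, at 0.24, had an unadjusted p of 0.0382 there, so the count was again 6.

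In 8 of the 36 genes both muscles of 1 experiment stood above all 6 other muscles, a share close to the 24.7% of all probe sets, so nothing is read from it about these genes. They were Thrsp, Gpam, Agpat2, Pparg, Plin2, Acly, Srebf1 and Dgat2. Thrsp, for example, stood at 5.95 and 5.53 in the muscles of experiment 4 against 4.69 to 5.27 in the others.

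The spread among the 4 empty-vector muscles differed widely within the list. Thrsp, Scd1, Lpl and Agpat2 had SDs at the 94.0, 88.5, 86.3 and 85.6 percentiles of all probe sets, with SDs of 0.54, 0.44, 0.42 and 0.41. Mgll, Car3, Cebpa and Slc27a1 were the steadiest, with SDs of 0.06 to 0.08, at the 2.01 to 4.42 percentiles. For 34 of the 36 genes the range over the empty-vector muscles exceeded the difference between plasmids, and Car3 and Cebpa were the exceptions. That range holds differences between experiments, which the block takes out of the fit, so it is not the spread behind the p-values. The share over all probe sets was not counted, so nothing is read from the 34 about these genes.

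Other genes of lipid storage were read from 4 further lists with 71 genes, of which 60 were measured. None passed the threshold, 29 were lower and 31 higher, and the median difference was 0.0054. Apoe, the apolipoprotein that muscle, fat and macrophages secrete, had the smallest p. It stood at 7.08, 6.66, 7.12 and 6.56 with empty vector and at 7.71, 7.95, 7.80 and 7.75 with ATF4, so the groups were apart. The difference was 0.95 (SE 0.14, adjusted p = 0.163 in limma), higher in 4 of 4 experiments, and it passed with a random block for the experiments (adjusted p = 0.0289). Its range over the other settings, among them each experiment left out, was 0.83 to 1.06 with adjusted p from 0.0652 to 0.634.

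Cideb, a droplet protein known from liver, stood at 4.22, 4.42, 4.34 and 4.57 against 4.58, 5.13, 4.87 and 4.89, a difference of 0.48 (SE 0.12, adjusted p = 0.697 in limma). It was higher in 4 of 4 experiments and its groups were just apart, with 4.57 the highest empty-vector value and 4.58 the lowest with ATF4. The other droplet and lipolysis genes of smallest p were Fitm2 at -0.21, Hilpda at 0.27 and Cav1 at -0.15 (differences). Those of fatty acid handling were Vldlr at -0.37, Lmf1 at 0.31 and Fabp3 at -0.18. For synthesis they were Slc25a1 at 0.24, Mogat1 at 0.26, Elovl5 at 0.18 and Aacs at 0.19, and for regulators Prkaa2 at -0.20, Insr at -0.24, Nr1h3 at -0.20 and Klf5 at 0.21. Only Apoe and Cideb of the 60 had an unadjusted p under 0.05 (in limma), both higher, where 6.00% of all probe sets had one and 3.23% were higher with one.

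Markers of other cells that share these genes were read beside them. The mean level of 7 macrophage markers, cells that express Apoe, Lpl, Cd36, Fabp4 and Plin2, ran from 5.19 to 6.18 over the empty-vector muscles and from 5.35 to 6.27 over the ATF4-labelled ones. It was higher with ATF4 in each experiment, by 0.39, 0.46, 0.09 and 0.16. The medians over the 7 markers were 0.55, 0.36, 0.04 and 0.09. In experiments 1 and 2, 1 of 7 markers was lower, and in experiments 3 and 4, 3 of 7 were. C1qb at 0.71 in experiment 3 and Cd68 at 1.13 in experiment 4 weighed most on those means. On average 6 of 7 markers were higher and 1 lower, where 45.5% of all probe sets were lower. C1qb had the largest difference of the 7, 0.55 (SE 0.14, adjusted p = 0.719 in limma). The mean of 8 endothelial markers, cells that express Gpihbp1 and Cd36, ran from 4.87 to 5.13 and from 4.80 to 5.14 in the same order, with 5 of 8 lower. It differed by -0.01, -0.13, -0.21 and 0.27 in experiments 1 to 4. The median over the 8 markers in experiment 4 was 0.09, since Cldn5 at 1.36 and Esam at 0.92 weighed on the mean. Cldn5 stood at the 15.9 percentile of probe set levels, where signal and background cannot be separated. Tek, the endothelial angiopoietin receptor, stood at 4.70, 4.82, 4.88 and 4.89 with empty vector and at 4.63, 4.27, 4.57 and 4.49 with ATF4. It was lower in 4 of 4 experiments with the groups apart, by a mean of -0.33 (SE 0.12, adjusted p = 0.787 in limma). Of all probe sets, 6.64% were lower in 4 of 4 and 0.752% had the groups apart in that direction. On average 3 of the 8 endothelial markers were higher, with Esam the furthest at 0.39 (SE 0.17). The mean of 7 markers of fibroblasts and fat-cell precursors was 6.05 to 6.26 and 6.02 to 6.32, with 2 of 7 lower. The 5 measured white fat markers had means of 4.44 to 4.72 and 4.40 to 4.72, with 2 of 5 lower, and the 5 brown fat markers 3.70 to 4.13 and 3.81 to 4.19, with 1 of 5 lower. All 9 fibre markers were lower on average, by -0.01 to -0.13, where 64.7% of the brightest 25% of probe sets were lower. In experiment 1 only 1 of the 9 was lower. The part of these cells in the values of the lipid genes was not tested.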

How the data were processed

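Amplified, biotin-labelled cDNA was read on mouse exon arrays, according to the labels' protocols. The authors deposited log2 values made with RMA, per the submitters' processing notes, which give no version and also name the build hg18 with no role. That the scale is log2 was inferred from the size of the values. All 16755 probe sets were fitted with limma 3.58.1 in R 4.3.3 (statmod 1.5.0), with the experiment as a fixed block and a prior variance that follows the mean level (4.96 prior and 3 residual degrees of freedom). The block follows from the series design, which sets the right against the left muscle. Deviations of paired arrays from their group means correlated with r = 0.07, 0.31, 0.55 and 0.05. Gene names came from the platform annotation, which gives 1 gene for 14996 probe sets, several for 1019 and none for 740.

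The genes and lists were chosen with earlier results of these data known. Values on every array are given for the 3 genes of smallest p and the brightest of each role group and for Plin1, Cidec and Fabp4, and the 4 genes of smallest p are named from each further list. The sharing of extremes by pairs, the split by brightness and the naming of C1qb, Cd68, Tek, Cldn5 and Esam were chosen after the values were seen. The fit was also tested on simulated data. Alternatives were no block, a random block, other priors, median centring, quantile normalization, filters on dim probe sets, array weights, averaging the probe sets per gene and dropping 1 experiment at a time. The number of arrays limits the precision. P-values rest on the spread of the 4 within-experiment differences, whatever that contains. For each probe set this spread was moderated towards that of probe sets of similar level.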

Additional observations from a re-analysis of the deposited data

Results flagged for a closer look

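Over 72 groups of 4 arrays (36 genes in either group), 5 held an array that stood far off, where chance at 1 in 20 gives 3.6. Plin1 stood at 4.78 with ATF4 in experiment 3, against 5.28 to 5.34 in the other ATF4-labelled muscles. Cidec stood at 4.21 with empty vector in experiment 4, against 4.58 to 4.65. Fabp4 stood at 5.59 with ATF4 in experiment 2, against 5.38 to 5.41. Acly stood at 4.69 with empty vector in experiment 3, against 4.40 to 4.43, and its partner muscle was also the highest of its group, at 4.63. Agpat2 stood at 4.88 with ATF4 in experiment 2, against 4.12 to 4.23, and its partner muscle stood at 4.84.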

How the results depend on the processing

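The count of genes past the adjusted threshold was 0 of 36 in the main fit and under every alternative run; 28 and 32 of the 36 entered the fits without the dimmest 50% and 25% of probe sets. The number with an unadjusted p under 0.05 was 6 in the main fit, 5 with no replicate block (Lpl at 0.0749), 7 with array weights (Retn added) and 1 to 6 with an experiment left out. The array weights favoured experiment 3, where Retn differed by -0.59. At the adjusted threshold the 36 genes gave 0 with the block, without it and with a random replicate block, while among the further lipid genes Apoe passed with the random one (0.0289). Over all probe sets, 3 passed in the main fit, 13 with the random replicate block, 7 and 12 without the dimmest 25% and 50%, 18 with array weights, 0 with median centring and with no trend in the variance prior, and 0 to 2 with an experiment left out. At an unadjusted p under 0.05 these last settings gave 929 and 985 probe sets, and 768 to 1124 with an experiment left out. The median difference of uptake and release genes was -0.19 in the main fit, -0.11 with quantile normalization and -0.26 to -0.15 with an experiment left out. That of the droplet coat genes was 0.09, or 0.0024 with array weights, which weighed experiment 3 most. Plin4, the median gene of the 3 in both fits, differed by -0.14 in that experiment. The cause of the shift with quantile normalization was not tested. The medians of fat-cell markers and of synthesis genes changed sign with an experiment left out (-0.11 to 0.01 and -0.0069 to 0.04). Single genes that turned sign numbered 5 with median centring, 4 with quantile normalization, 7 with array weights and 4 to 10 with an experiment left out. Signal over background could not be read from these files, which limits the dim genes most.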
